A study of Mus musculus with 6 samples.

Results

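Fc gamma receptors bind the constant part of IgG and so let a cell take up or react to antibody-coated targets. The 6 genes described here are the mouse activating receptors Fcgr1, Fcgr3 and Fcgr4, their shared signalling chain Fcer1g, the inhibitory receptor Fcgr2b and the neonatal Fc receptor heavy chain Fcgrt, chosen by gene symbol from the 55357 genes listed. All 6 were above 0 in each of 6 cultures, and all 6 passed the filter on low values that left 15280 genes for testing. RNA-seq was performed on primary cortical astrocytes of C57BL/6 mouse embryos at embryonic day 18. In the KE group, 3 cultures had received a plasmid in which the CMV promoter, which is active in most cell types, drives FLAG-tagged BRAF with the K499E change found in cardiofaciocutaneous syndrome, and in the NT group 3 nontransfected cultures had not. RNA was collected at 48 hours. No culture with an empty plasmid or with wild-type BRAF was sequenced here, so the BRAF KE protein, the plasmid DNA and the transfection cannot be told apart as sources of a difference. The labels and methods do not say whether the cultures of a group came from separate preparations, so the p-values measure only the spread between these cultures, which may be technical.

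In the brain, Fc gamma receptors are known chiefly from microglia and macrophages. An activating receptor pairs with the gamma chain, whose ITAM is phosphorylated by Src family kinases when antibody cross-links the receptors and then recruits the kinase Syk, and the signal ends in actin-driven phagocytosis. FCGR2B carries an ITIM instead, recruits the lipid phosphatase encoded by Inpp5d and restrains the activating receptors in the same cell. FcRn, the product of Fcgrt with beta-2 microglobulin, lies apart from this pathway and recycles IgG from endosomes in many cell types.

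Of the genes, 4 lie in a cluster of 276 kb on chromosome 1 in GRCm39. Fcgr2b occupies chr1:170786186-170804177 on the minus strand, Fcgr4 chr1:170846466-170857330 on the plus strand, Fcgr3 chr1:170878738-170893549 on the minus strand and Fcer1g chr1:171057141-171062219 on the minus strand. Fcgr1 lies at chr3:96190225-96201338 and Fcgrt at chr7:44742412-44756819, both on the minus strand. Values of each gene cover the exons of the whole gene. Fcgr2b shares exonic bases with the antisense lncRNA Gm38204, which was listed at 0 in all 6 cultures. Fcgr3 and Fcgr2b are close relatives, and 94 of the 1471 possible 75-base stretches of the Fcgr3 transcript also occur in Fcgr2b (6.39%). Of the 3239 stretches of the Fcgr2b transcript, 231 (7.13%) occur in Fcgr3 or in some other gene, so a small part of the reads of both could have been divided. No such stretch of Fcgr1, Fcgr4, Fcer1g or Fcgrt occurred in another gene.

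Start regions are shown for the 2 receptors that fell least in KE, Fcgr1 and Fcgr4, and for the 2 that fell most, Fcgr3 and Fcgr2b, to place the sequences beside the levels of the transcription factors given further on. Each window runs from 250 bases before to 50 bases after a RefSeq start, was taken from RefSeq (table build GRCm38.p6) and was found once in GRCm39, at chr3:96201236-96201535 (minus strand) for Fcgr1, chr1:170846245-170846544 (plus strand) for Fcgr4, chr1:170886923-170887222 (minus strand) for Fcgr3 and chr1:170803591-170803890 (minus strand) for Fcgr2b. Capitals mark matches, on either strand, to GAGGAA (the core bound by PU.1, the product of Spi1), TTCNNNGAA (the GAS element), the interferon response element core (GAAA, 2 free bases and GAAA) and TTGCNNAA (bound by C/EBP factors). All are written 5′ to 3′ on the strand of the gene.
Fcgr1: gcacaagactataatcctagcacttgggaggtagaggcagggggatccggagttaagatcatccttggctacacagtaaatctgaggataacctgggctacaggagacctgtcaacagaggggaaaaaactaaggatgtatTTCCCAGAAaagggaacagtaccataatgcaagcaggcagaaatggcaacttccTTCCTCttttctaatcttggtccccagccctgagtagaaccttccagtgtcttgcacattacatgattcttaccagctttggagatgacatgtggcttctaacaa
Fcgr4: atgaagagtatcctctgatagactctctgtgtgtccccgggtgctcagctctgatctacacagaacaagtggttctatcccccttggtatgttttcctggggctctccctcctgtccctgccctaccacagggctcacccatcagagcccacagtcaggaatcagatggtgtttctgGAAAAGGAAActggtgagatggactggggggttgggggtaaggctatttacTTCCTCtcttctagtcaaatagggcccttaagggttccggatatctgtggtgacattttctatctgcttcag
Fcgr3: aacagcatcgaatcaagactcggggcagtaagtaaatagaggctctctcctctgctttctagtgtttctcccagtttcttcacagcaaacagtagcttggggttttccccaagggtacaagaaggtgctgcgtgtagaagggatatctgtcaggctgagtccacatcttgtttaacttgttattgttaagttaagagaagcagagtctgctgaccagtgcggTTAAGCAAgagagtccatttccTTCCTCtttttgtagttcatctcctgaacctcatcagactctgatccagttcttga
Fcgr2b: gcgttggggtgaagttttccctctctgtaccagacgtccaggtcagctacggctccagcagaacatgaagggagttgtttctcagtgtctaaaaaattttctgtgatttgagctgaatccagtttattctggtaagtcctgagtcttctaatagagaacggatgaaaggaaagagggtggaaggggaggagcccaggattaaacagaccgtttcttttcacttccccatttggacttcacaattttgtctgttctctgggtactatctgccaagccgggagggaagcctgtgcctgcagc

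The Fcgr1 window held the GAS match TTCCCAGAA from -109 to -101 relative to the start and the PU.1 core, read on the opposite strand as TTCCTC, from -55 to -50. The Fcgr4 window held the interferon element match GAAAAGGAAA from -73 to -64 and TTCCTC from -22 to -17. The Fcgr3 window held the C/EBP match TTAAGCAA from -28 to -21 and TTCCTC from -6 to -1. Relative to another RefSeq start of Fcgr3, whose window is not shown, the same matches lay from -37 to -30 and from -15 to -10. None of the 4 motifs occurred in the Fcgr2b window or in that of Fcer1g, and the Fcgrt window held only a C/EBP match, TTAGGCAA, from -239 to -232. Such matches are common: of 32851 start windows of this length, 28.3% held GAGGAA, 8.30% TTCNNNGAA, 3.44% the interferon response element core and 10.8% TTGCNNAA. They describe the sequence and do not show binding.

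Of the 6 genes, 5 were lower in KE, and Fcgrt did not pass the test. The 5 that fell are the 3 activating receptors, the gamma chain and the inhibitory receptor, and their normalized counts in KE were 7.07% to 23.8% of those in NT. In the limma fit over all 15280 genes (adjusted p under 0.05), 26.0% of genes were called lower and 25.3% higher, so the call alone was common. A fall beyond a log2 fold change (log2FC) of -1.5 was found for all 5 and for 3.44% of tested genes, and values without overlap and lower in KE were found for the same 5 and for 29.9% of tested genes. The median log2FC over the 6 genes was -2.89, beside 0.00183 over all tested genes. Log2FC is given on the log2(normalized count + 1) scale, which slightly understates the change of low genes.

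**Figure D1:**
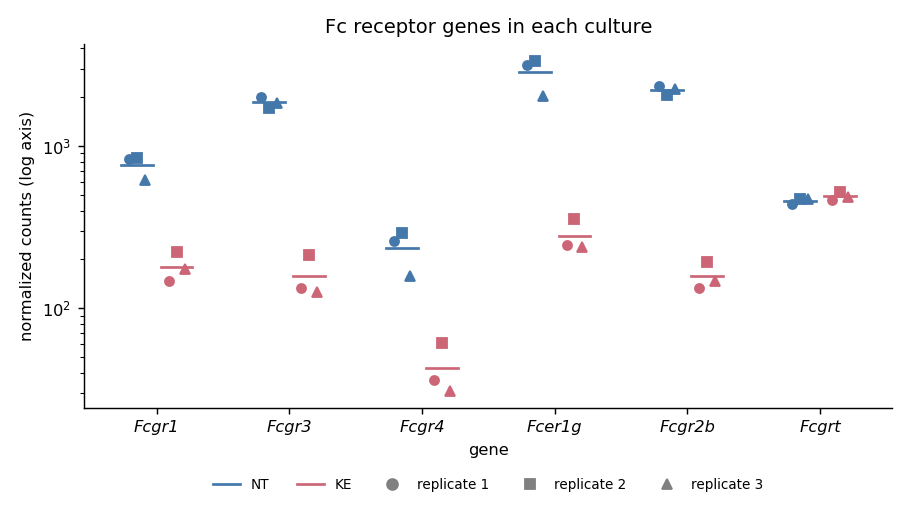
Normalized counts of the 6 genes (log axis) in 3 NT (blue) and 3 KE (red) cultures, with marker shapes for the replicate numbers and lines for the group means. NT and KE do not overlap for Fcgr1, Fcgr3, Fcgr4, Fcer1g and Fcgr2b, whereas the Fcgrt values lie between 439 and 523 in all 6 cultures.

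Among the activating receptors, Fcgr3 fell most. Fcgr3 encodes a low-affinity receptor for IgG immune complexes. Its normalized counts were 133, 211 and 127 in KE replicates 1 to 3 and 2017, 1712 and 1836 in NT replicates 1 to 3. Every NT culture was far above every KE culture, and within KE replicate 2 was the highest. The means of 157 ± 47.1 and 1855 ± 153 (SD, n = 3 each) left KE at 8.47% of NT (log2FC -3.59, SE 0.17, 95% confidence interval -3.96 to -3.22, limma adjusted p = 3.65e-08), the 108th lowest log2FC of the 15280.

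Fcgr1 encodes the high-affinity receptor, which can hold single IgG molecules. Its values were 146, 222 and 174 in KE and 828, 837 and 617 in NT. The groups did not overlap, but the distance was shorter than for Fcgr3, since NT was lower and KE slightly higher. The means were 181 ± 38.3 and 761 ± 125, and the fitted difference was 4.21-fold (log2FC -2.07, SE 0.16, interval -2.43 to -1.72, limma adjusted p = 1.67e-06). The interval of Fcgr1 does not meet that of Fcgr3.

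Fcgr4, a receptor for the mouse subclasses IgG2a/c and IgG2b found on macrophages and neutrophils, had the lowest normalized counts of the 6, without correction for length. Its values were 36.1, 61.3 and 30.8 in KE and 259, 290 and 157 in NT. KE replicate 2 was again the highest of its group, NT replicate 3 was the lowest of the other, and a gap remained between them. The means were 42.7 ± 16.3 and 235 ± 69.7, and the fitted difference was 5.46-fold (log2FC -2.45, SE 0.28, interval -3.07 to -1.83, limma adjusted p = 3.33e-05). At the approximate depth of each library, the KE values stand for 34.0 to 49.0 reads, and the SE was the largest of the 6.

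Fcer1g encodes the gamma chain, without which the activating receptors neither signal nor remain well expressed at the surface. Its normalized counts were 244, 355 and 239 in KE and 3138, 3364 and 2027 in NT. NT replicate 3 was well below the other 2 NT cultures and still far above every KE culture. The means were 279 ± 65.8 and 2843 ± 716, and the fitted difference was 10.1-fold (log2FC -3.33, SE 0.19, interval -3.75 to -2.91, limma adjusted p = 1.60e-07).

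Fcgr2b, the inhibitory receptor, had the largest fall of the 6. It was measured at 133, 192 and 147 in KE and at 2354, 2067 and 2244 in NT. Both groups were tight around their means of 157 ± 30.6 and 2222 ± 145. The fitted difference was 14.2-fold (log2FC -3.83, SE 0.13, interval -4.10 to -3.55, limma adjusted p = 5.39e-09), the 67th lowest log2FC of the 15280.

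Fcgrt did not follow the other genes. Its values were 465, 523 and 485 in KE and 439, 469 and 468 in NT, and the groups overlapped. The means of 491 ± 29.6 and 459 ± 17.1 gave a log2FC of 0.10 (SE 0.09, interval -0.10 to 0.29, limma adjusted p = 0.384). A fall as large as that of any of the 5 other genes lies outside this interval.

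**Figure D2:**
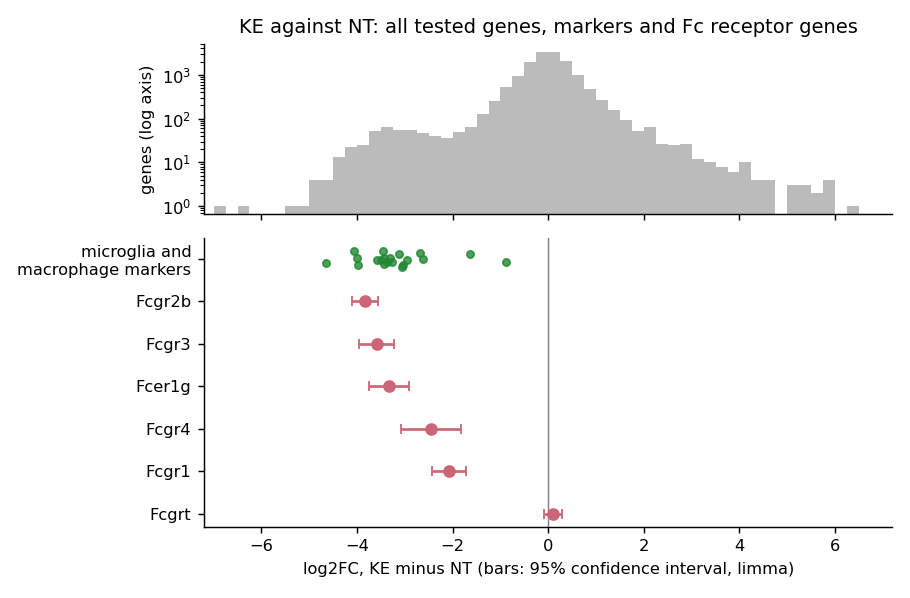
Top, the log2FC (KE minus NT) of all 15280 tested genes, with the number of genes on a log axis. Bottom, the log2FC of the 6 genes with 95% confidence intervals (limma, 3 cultures in each group) and, as green points, of the 20 tested microglia and macrophage markers. The 5 genes that fell lie between -3.83 and -2.07, within the range of the markers, and Fcgrt lies at 0.10.

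Per kilobase of transcript, the order of the genes changed between the groups. In NT, Fcer1g was highest with a mean of 2964 normalized counts per kb (2113 to 3507), followed by Fcgr3 with 1200 (1108 to 1305), Fcgr2b with 653 (607 to 692), Fcgr1 with 288 (234 to 317), Fcgr4 with 184 (123 to 227) and Fcgrt with 157 (150 to 160). The ranges of neighbours did not overlap, apart from those of Fcgr4 and Fcgrt. In KE, Fcer1g remained highest with 291 (249 to 371), but Fcgrt was next with 167 (159 to 178), ahead of Fcgr3 with 102 (81.9 to 137), Fcgr1 with 68.4 (55.4 to 84.0), Fcgr2b with 46.2 (39.1 to 56.3) and Fcgr4 with 33.4 (24.1 to 47.9). In this group the ranges of Fcgr3 and Fcgr1, of Fcgr1 and Fcgr2b and of Fcgr2b and Fcgr4 overlapped. KE replicate 2 was the highest for each of these 4, and within every KE culture their order was the same.

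The summed normalized counts of the 4 receptors Fcgr1, Fcgr2b, Fcgr3 and Fcgr4 were 449, 686 and 478 in KE and 5458, 4907 and 4854 in NT, a 9.44-fold difference of the means (538 ± 129 and 5073 ± 334). The make-up of this pool also differed. Counted per kb, Fcgr1 made up 27.7 ± 2.60% of the 4 in KE and 12.4 ± 1.72% in NT, and Fcgr4 made up 13.1 ± 1.80% and 7.89 ± 2.24%. The shares of Fcgr3 were 40.5 ± 2.12% in KE and 51.6 ± 2.45% in NT, and those of Fcgr2b were 18.7 ± 1.38% and 28.1 ± 1.60%. For each receptor the 3 KE shares and the 3 NT shares did not overlap.

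To compare activating with inhibitory receptors inside each culture, each activating receptor was divided by Fcgr2b, a ratio that does not depend on how a library was scaled. Fcgr1 over Fcgr2b was 1.10, 1.16 and 1.19 in KE and 0.352, 0.405 and 0.275 in NT. Fcgr4 over Fcgr2b was 0.271, 0.320 and 0.210 in KE and 0.110, 0.140 and 0.0699 in NT. Both ratios were thus higher in every KE culture than in any NT culture, 3.37-fold for Fcgr1 (log2 difference 1.75) and 2.60-fold for Fcgr4 (log2 difference 1.38). Fcgr3 over Fcgr2b moved little, from 0.857, 0.828 and 0.818 in NT to 1.00, 1.10 and 0.862 in KE, a log2 difference of 0.24 that was 0.16 without KE replicate 2 and 0.34 without KE replicate 3. In the exact permutation test (two-sided) each of the 3 ratios gave p = 0.10, also after adjustment over the 3, which is the smallest value that 3 cultures against 3 can give, so none could pass 0.05.

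**Figure D3:**
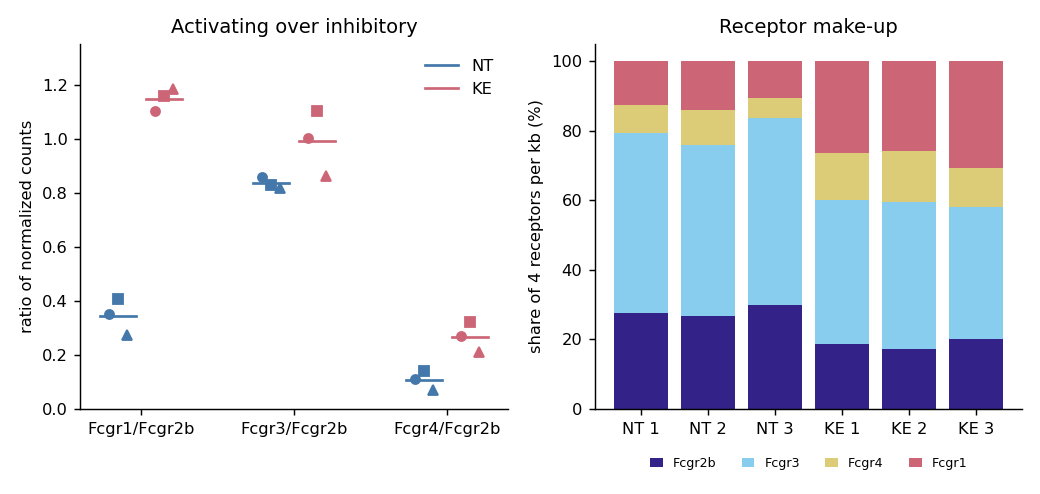
Left, the ratio of each activating receptor to the inhibitory Fcgr2b in 3 NT (blue) and 3 KE (red) cultures, with lines for the means and marker shapes for the replicate numbers. Right, the share of each receptor in the sum of 4 per kb in each culture. The mean ratio of Fcgr1 to Fcgr2b is 0.344 in NT and 1.15 in KE.

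The cultures of a group also varied together. KE replicate 2, the least deeply sequenced library, was the highest KE culture for all 6 genes, by 0.30 (Fcgr2b) to 0.57 (Fcgr4) above the KE mean on the log2 scale for the 5 that fell and by 0.09 for Fcgrt. NT replicate 3 was the lowest NT culture for Fcgr1 (-0.29 from the NT mean), Fcgr4 (-0.53) and Fcer1g (-0.45), but not for Fcgr3 (-0.01) or Fcgr2b (0.02). In the mean of the microglia and macrophage markers the same cultures stood 0.31 above and 0.16 below their group means. Leaving out each culture in turn kept all 5 calls, with log2FC between -2.23 and -1.93 for Fcgr1, -3.82 and -3.45 for Fcgr3, -2.74 and -2.25 for Fcgr4, -3.56 and -3.19 for Fcer1g and -3.98 and -3.72 for Fcgr2b.

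The markers of the cells that usually carry these receptors fell in the same cultures. Of 23 microglia and macrophage markers, 20 were tested and all 20 were lower in KE, with log2FC from -4.66 (Mrc1) to -0.88 (P2ry12) and a median of -3.34. Their sum was 6641 to 9221 in KE and 58617 to 72776 in NT. Csf1r, the receptor on whose signal microglia depend, was measured at 278, 277 and 274 in KE and 2751, 3737 and 2751 in NT (log2FC -3.46, SE 0.11, limma adjusted p = 5.05e-09). Adgre1 (log2FC -4.01) and C1qa (-3.12) were among the most abundant of the list, Siglech was listed at 0 in every culture, and Cd163 and Lyve1 were too low to test. In bulk RNA, fewer cells of a type and less RNA per cell cannot be told apart. The part of the marker difference in the fall of the receptors was not tested.

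Set against the mean of these 20 markers in the same culture, which was 3.20 lower in KE on the log2 scale, the 5 genes separated. Fcgr1 was 1.13 and Fcgr4 0.76 higher in KE relative to the markers, and Fcgr3 was 0.39 and Fcgr2b 0.63 lower. The values of the groups did not overlap for these 4, and the exact permutation p (two-sided) was 0.10 for each, or 0.12 adjusted over the 6 genes, the smallest p being 0.10. Fcer1g tracked the markers most closely. Its relative level was 0.40, 0.49 and 0.40 in KE and 0.65, 0.76 and 0.27 in NT, with overlap and a difference of -0.13 (exact permutation p = 0.40), which was -0.27 without NT replicate 3, -0.03 without NT replicate 2 and -0.23 with the C1q genes and Mrc1 left out of the markers. Fcgrt was 3.30 higher relative to the markers.

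Lists of other cell types were measured in the same libraries, and their counts stand beside 26.0% of all tested genes called lower and 25.3% higher. The 10 astrocyte markers were all tested, with sums of 150288 to 152751 in KE and 109516 to 114729 in NT, and 6 were higher and 2 lower (median log2FC 0.33). Of blood cells, T cell markers were listed at 0, and mast cell, neutrophil and NK cell lists summed to at most 0.989, 19.2 and 5.98 in any culture. The B cell list summed to 41.6 to 60.6 in KE and 6.57 to 15.5 in NT through Pax5 (log2FC 4.04, SE 0.40), while Cd79a, Cd79b and Ms4a1 were too low to test. Of the remaining brain lists, 6 of 7 tested oligodendrocyte lineage markers and 2 of 4 endothelial markers were lower and none higher, and neuron (1 lower and 1 higher of 5), mural (1 and 1 of 3) and fibroblast (2 and 2 of 5) lists went both ways. Braf itself was at 34933 to 40978 in KE and 811 to 946 in NT, in keeping with the labels.

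Downstream of the activating receptors, 18 of 24 tested genes of the signalling list were lower, 1 was higher and 5 did not pass (median log2FC -0.73). This and the later list counts stand beside 26.0% of all tested genes called lower and 25.3% higher. Syk, the kinase recruited by the gamma chain, was at 282, 315 and 288 in KE and 1810, 2156 and 1129 in NT (log2FC -2.47, SE 0.19). Lcp2, the adaptor SLP-76, had a log2FC of -3.54 (SE 0.17). Of the Src family kinases, Lyn was lower at -0.63 and Fyn at -0.32, and Src itself was higher at 0.31 (SE 0.07, limma adjusted p = 0.00305). The abundant regulatory subunit Pik3r1 did not pass the test (log2FC 0.09), and the ubiquitin ligase Cbl, which ends receptor signals, was at -0.43.

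On the inhibitory side, 5 of 10 tested genes were lower (26.0% of all tested genes), 1 was higher (25.3%) and 4 did not pass (median log2FC -0.26). Inpp5d, the phosphatase used by FCGR2B, was at 91.9, 115 and 72.8 in KE and 921, 1259 and 812 in NT, without overlap (log2FC -3.40, SE 0.19). Ptpn6, which encodes the phosphatase SHP-1, had a log2FC of -3.15 (SE 0.22). Dok1, an adaptor that dampens Ras signals, was the 1 gene of the list that rose (0.80, SE 0.09), and Inppl1, Ptpn11 and Csk, found in most cells, did not pass. All 7 tested receptors with ITIMs were lower (median -3.89), from Siglece at -4.39 to Sirpa, which astrocytes and neurons also express, at -0.70, with Lilrb4a at -3.91 and Cd33 at -3.89 between them.

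The gamma chain also serves other receptors. Of 11 such genes 5 were tested, and the C-type lectin receptors Clec4n (log2FC -5.05, SE 0.35), Clec4e (-4.19, SE 0.34) and Clec4d (-4.11, SE 0.14) had lower log2FC than any of the 6 genes. Clec4n, which encodes Dectin-2, was between 9.04 and 34.5 in KE and between 577 and 600 in NT. Pira2 was lower as well, and Oscar was higher at 10.9, 14.7 and 24.5 in KE against 4.97, 1.04 and 4.79 in NT, a level so near the mean filter of 10 that it was not tested without KE replicate 2 or 3. Gp6, Ncr1 and both partner chains of the IgE receptor, Fcer1a and Ms4a2, were listed at 0. Tyrobp, the adaptor DAP12 that acts beside it in microglia, was at 188, 235 and 140 in KE and 2265, 2083 and 1959 in NT (log2FC -3.51, SE 0.15).

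Among other Fc receptor genes, 3 of 12 were tested. Fcrls, an Fc receptor-like gene used as a microglial marker, fell from 5069, 4717 and 3525 in NT to 223, 334 and 213 in KE (log2FC -4.12, SE 0.17), and Fcrl1 was lower at values of at most 24.2, a level so low that it was not tested without NT replicate 1 or 2. Trim21, the cytosolic antibody receptor present in most cells and induced by interferon, rose from 630, 701 and 513 in NT to 2219, 2133 and 2136 in KE (log2FC 1.83, SE 0.10, limma adjusted p = 1.32e-07). Of the actin regulators of phagocytosis, 14 of 18 were lower, none was higher and 4 did not pass (median -1.40). Rac2, the haematopoietic Rac, was at -3.70 (SE 0.26), while the ubiquitous Rac1 was at -0.18 (SE 0.06), a call lost without the variance trend and without any 1 of KE replicate 2, NT replicate 2 and NT replicate 3. Cdc42 and Arpc2, also ubiquitous, did not pass.

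Beta-2 microglobulin, the light chain of FcRn, rose while Fcgrt did not pass. B2m was at 74765, 76813 and 72272 in KE and 34651, 32960 and 29522 in NT, well apart (log2FC 1.21, SE 0.07, limma adjusted p = 1.98e-07). It also pairs with MHC class I heavy chains. Of the other 5 tested recycling genes, Ehd1 was lower at -0.45 (SE 0.13) and 4 did not pass, Rab11a and Rab11b among them. The call of Ehd1 was lost without the variance trend and without KE replicate 3. IgG heavy chain transcripts (Ighg1, Ighg2b, Ighg2c and Ighg3) and Apcs were listed at 0 in all cultures, and the 7 ligand genes summed to at most 1.90.

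**Figure D4:**
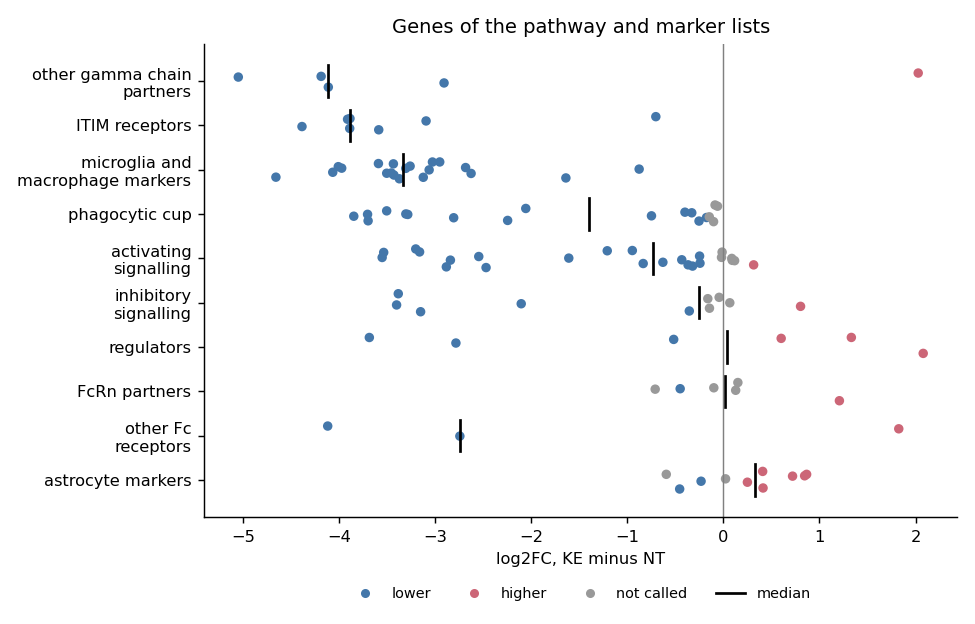
The log2FC (KE minus NT) of each tested gene of 10 lists, coloured by call (limma, adjusted p under 0.05), with a black line at the median of the list. Receptors that share the gamma chain and receptors with ITIMs lie furthest to the left with medians of -4.11 and -3.89, activating signalling genes spread from -3.55 to 0.31, and the FcRn partners centre on 0.01.

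The 6 tested transcription factors, known from myeloid and interferon-induced genes, divided evenly, 3 lower and 3 higher. Spi1, the myeloid factor PU.1, was at 62.2, 95.1 and 40.5 in KE and 832, 1037 and 620 in NT (log2FC -3.69, SE 0.27), and Irf8 was at -2.79 (SE 0.14) and Cebpa at -0.52 (SE 0.10). Irf1, induced by interferons, was at 2519, 2515 and 2545 in KE and 1022, 1098 and 899 in NT, a log2FC of 1.33 (SE 0.08, limma adjusted p = 1.67e-07) and Cebpb was at 0.60 (SE 0.08), while Ifng was listed at 0. The windows of Fcgr1, Fcgr4 and Fcgr3 shown above held the core bound by PU.1. Whether these factors have a part in the receptor levels was not tested.

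Of the tested genes next to those that fell, none was called lower. Over all tested genes, 26.0% were called lower and 25.3% higher. Within 100 kb of the 4 genes on chromosome 1, 14 protein-coding genes were tested, of which none was lower, 7 were higher and 7 did not pass (log2FC -0.14 to 1.25, median 0.23). Only 2 of the 5 protein-coding genes nearest Fcgr2b, and 10 of the 12 nearest Fcer1g, were tested. Dusp12 (0.12, not passed) lay 73077 bases and Atf6 (0.21) 89978 bases from Fcgr2b. Cfap126 (0.63) and Sdhc (-0.04, not passed) lay between Fcgr3 and Fcer1g. The call of Atf6 was lost without the variance trend and without KE replicate 1, KE replicate 3 or NT replicate 3, that of Cfap126 without KE replicate 3, and that of B4galt3 (0.24) without the variance trend and without any 1 culture other than KE replicate 3. Around Fcgr1, 5 of 7 tested neighbours were higher and none lower, among them the replication-dependent histone genes H2ac18 (3.25, SE 1.06), H3c15 (1.68) and H2ac19 (1.28), which belong to multicopy families and are uncertain. The call of H2ac18 was lost without the variance trend and without KE replicate 1 or 2, that of Sv2a (0.30) was lost without NT replicate 1 or 2, and H4c14 (1.75) was too low to be tested without KE replicate 1 or 2. Around Fcgrt, 4 of 14 were lower and 6 higher (-0.67 to 0.73), and Rcn3, 744 bases away, was at 0.35. The calls of Aldh16a1 (lower), Flt3l and Scaf1 (both higher) in this region were each lost under several alternatives.

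**Figure D5:**
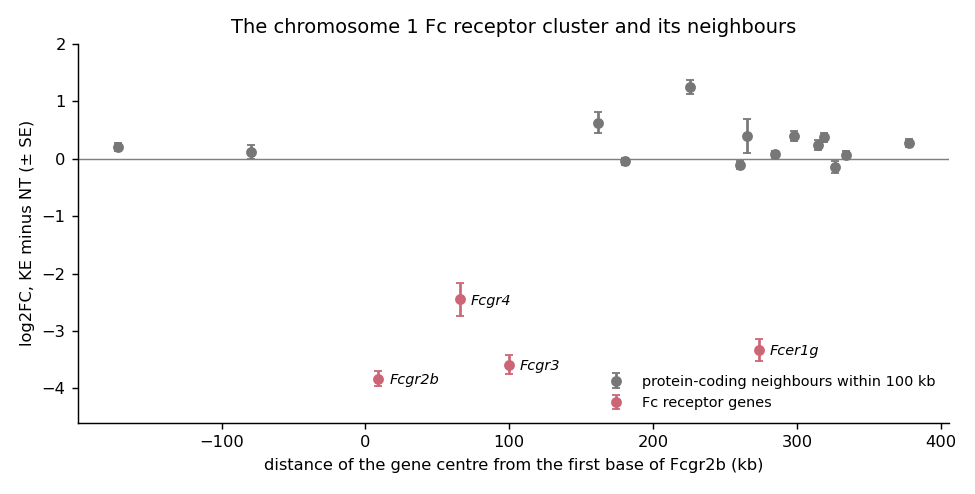
The log2FC (KE minus NT, ± SE) of the 4 Fc receptor genes on chromosome 1 (red) and of tested protein-coding genes within 100 kb of them (grey), against the distance of the centre of the gene from the first base of Fcgr2b in kb. The receptor genes lie between -3.83 and -2.45 and their neighbours between -0.14 and 1.25.

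As a description of likeness, the log2 profile of each gene over the 6 cultures was centred on its mean. It was compared, by the root-mean-square difference, with those of 12066 other genes with a mean of at least 100. Such a profile keeps the difference between KE and NT, so closeness largely restates a similar log2FC. Fcer1g was closest to Cd52 (0.06), Ms4a6c (0.06) and Nckap1l (0.08), and Fcgr1 to Vsir (0.09), Gpnmb (0.10) and Tgfb1 (0.11). The nearest to Fcgr3 were Cfp, Siglec1 and Tyrobp (0.13 each), to Fcgr2b Itgam (0.14), Dock2 (0.15) and Bin2 (0.16), and to Fcgr4 Ccl4 (0.14), Cd72 (0.16) and Lpcat2 (0.22). Cd52 was at 199, 285 and 195 in KE and 2551, 2515 and 1744 in NT, with the same high KE replicate 2 and low NT replicate 3 as Fcer1g. Fcgrt had other neighbours, Strn4, Mtss2 and Rptor (0.02 each), none of which passed the test. Among the 6 genes themselves, Fcgr3 and Fcgr2b were the closest pair (0.16), then Fcer1g and Fcgr3 (0.28) and Fcgr1 and Fcgr4 (0.29), the pair that fell least.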

How the data were processed

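RNA-seq libraries (TruSeq stranded mRNA) of 3 KE and 3 NT cultures were analysed, and groups and replicate numbers were read from the sample titles. The authors deposited 1 normalized signal per gene and culture, Salmon gene counts divided by DESeq2 size factors. Before that, per the methods, TrimGalore removed adapters and STAR aligned the reads (GRCm39, Gencode vM28). The differential analysis of the study adjusted for batches that are not named, and whether the deposited values carry such an adjustment is not stated. The labels list a human build, but the gene identifiers are those of mouse. Totals were 30472400 to 30895500 normalized counts, for an approximate depth of 24490500 (KE replicate 2) to 34144700 reads. No more than 77.7% of the low values of a culture came to whole reads (tolerance 0.1), so a count test was not used, and no counting interval could be given.

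Genes with a mean of at least 10 were tested by limma 3.58.1 (R 4.3.3) with a variance trend on log2(normalized count + 1), with Benjamini-Hochberg adjustment over 15280 genes. Tests are two-sided. Ratios were compared by exact permutation (scipy 1.17.1). Positions came from Gencode vM39 on GRCm39, and each of the 6 genes was found by identifier. RefSeq start windows matched all 6 genes.

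The 6 genes and the gene lists were chosen with earlier results of these data known. The text names, by rule, these 6, the 3 most abundant tested genes of each list, Tyrobp, B2m, list genes called against the direction of their list, protein-coding neighbours within 100 kb and the 3 nearest profiles. Other genes, such as Syk, Lcp2, Lyn, Inpp5d, Ptpn6, Rac2, Csf1r, Pax5 and Braf, were chosen after their values were seen. Some genes that the rule would name are not reported here. Alternatives were other pseudocounts, filters and scalings, no trend, a replicate block, a log2FC cutoff, other marker sets and leaving out each culture. The fits were tested on simulated data.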

Additional observations from a re-analysis of the deposited data

How the results depend on the processing

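Under every alternative run, the 5 calls and the lack of one for Fcgrt were kept, and of 84 recomputed log2FC of the 6 genes all 84 kept direction and side of the threshold. Leaving out each culture moved Fcgrt between 0.05 and 0.13, the number of all genes called lower between 3496 and 3744 and the number called higher between 3280 and 3565. Quantile normalization called 3770 lower and 4214 higher. Without 1 culture at a time, 3 genes with no call changed sign, Rpl13a (log2FC -0.038 to 0.045), Sdhc (-0.091 to 0.023) and Dusp12 (-0.00049 to 0.22), as did Mtss2 after quantile normalization (-0.0093). The cause was not tested.

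A block for the replicate number gave 4079 genes lower and 3967 higher, with the same 5 of the 6 genes lower. Cultures with the same number correlated by 0.059 to 0.066 in their deviations from the group means, against -0.050 to -0.010 for different numbers. These correlations were weak, and the sample titles name no pairs. Each culture correlated best with its own number, as a hint from the data only. For the ratios and the levels relative to the markers, a sign-flip test over 3 pairs allows no p under 0.25. No test based on their spread between cultures was run. Fcgr4 in KE rests on the fewest reads.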
